A study of Rattus norvegicus with 6 samples.

Results

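Genes for the subunits of RNA polymerases I, II and III (Pol I, Pol II and Pol III) and for the dedicated initiation factors of Pol I and Pol III were followed in sensory neurons of the spontaneously hypertensive rat (SHR), an inbred strain that develops high blood pressure. The members were the protein-coding rows of the gene count table whose symbol starts with Polr1, Polr2 or Polr3 and a letter, together with Ubtf, Rrn3, Taf1a to Taf1d, Brf1, Brf2, Bdp1, Maf1, Gtf3a and Gtf3c1 to Gtf3c6. This gave 44 of the 25689 genes in the table. They fell into 3 subunits of Pol I alone, 2 shared by Pol I and Pol III, 4 shared by all 3 polymerases, 8 of Pol II, 10 of Pol III, 6 Pol I factors and 11 Pol III factors.

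The study compared SHRs after ablation of the perirenal adipose tissue (PRATA) with sham-operated SHRs, with 3 RNA-seq samples in each group. All animals were wild type and 6 to 8 weeks old by the labels, so the groups differed by the operation alone as labelled. The study's methods give an older age for its SHRs, so the age at sampling is in doubt. By the study's methods, L1-L2 dorsal root ganglia (DRG) were taken 4 weeks after surgery, digested to single cells and plated for a short time, and the loosely attached neurons were flushed off the more adherent glia. No source used here says whether a sample was 1 animal or a pool, so the p-values measure only the spread between these samples, which may be technical.

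Total counts ran from 5892967 in sham sample 2 to 15226952 in sham sample 1. Values are CPM, read counts scaled to the library total, after TMM scaling, which corrects for library size and composition, and 3 counts corresponded to 0.207 to 0.468 CPM depending on the sample. All 16 sensory neuron markers were detected, with a summed level of 21118, 14404 and 21619 CPM in PRATA samples 1 to 3 and 9907, 15078 and 12350 CPM in sham samples 1 to 3. Glial markers (1149 to 2240 CPM summed), fibroblast markers (541 to 2711 CPM) and leukocyte markers (66.9 to 313 CPM) were present too, so the samples were not neurons alone. PRATA sample 3 and sham sample 1 stood apart from the other 4 samples across groups: 92% and 94.1% of their 7SL RNA counts fell on a single gene copy, against 45.3% to 47.4% elsewhere. Results are therefore also given within the other 4 samples. In bulk samples such as these, fewer cells of a type and less RNA per cell cannot be told apart.

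Pol I transcribes the ribosomal DNA repeats into the precursor of the large ribosomal RNAs, in the nucleolus. Pol II makes messenger RNAs and most small nuclear RNAs, and Pol III makes transfer RNAs, 5S ribosomal RNA and other short RNAs such as U6 and 7SL. Each enzyme has 2 large subunits that form the active site, and several small subunits serve more than 1 enzyme. Together Pol I and Pol III account for most RNA synthesis in a growing cell, and neurons, with their large nucleoli, keep both active without dividing.

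All 44 members passed the filter on low counts and were among the 14919 genes tested. The quasi-likelihood test of edgeR, with p-values adjusted over all genes tested, called none of them at 0.05, beside 0.0% of all genes, and the smallest adjusted p of a member was 0.156, which was also the smallest of any gene. At an unadjusted p under 0.05, 12 of the 44 members were lower after PRATA, beside 10.1% of all genes tested, and 0 were higher, beside 8.19%. In 15 members every PRATA sample was below every sham sample (11.2% of all genes), and in 1 every PRATA sample was above (11.6%). The median log2 difference (PRATA minus sham) over the members was -0.28, against 0.02 over all genes tested, and 35 of the 44 had a negative value, against 48.0% of all genes.

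The lower values lay mostly with Pol I. Of the 11 genes for Pol I subunits, subunits shared by Pol I and Pol III, and Pol I factors, 8 were lower at an unadjusted p under 0.05. All 11 had a negative log2 difference and the median was -0.66. The other 33 members include the 4 subunits shared by all 3 polymerases, which are part of Pol I too. Of the other 33 members, 4 were lower (Polr2b, Polr3f, Gtf3c6 and Gtf3c4), a share like that of all genes. Of these 33, 24 had a negative log2 difference and the median was -0.15. Among all genes tested 10.1% were lower and 48.0% had a negative log2 difference. The difference between these 2 groups of genes was not tested. DESeq2 placed 4 members at an adjusted p under 0.05 (Polr1b, Polr1e, Taf1d and Gtf3c6), beside 4.88% of all genes, and limma voom with sample weights placed 9, beside 7.86%. All of these were lower after PRATA.

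**Figure D1:**
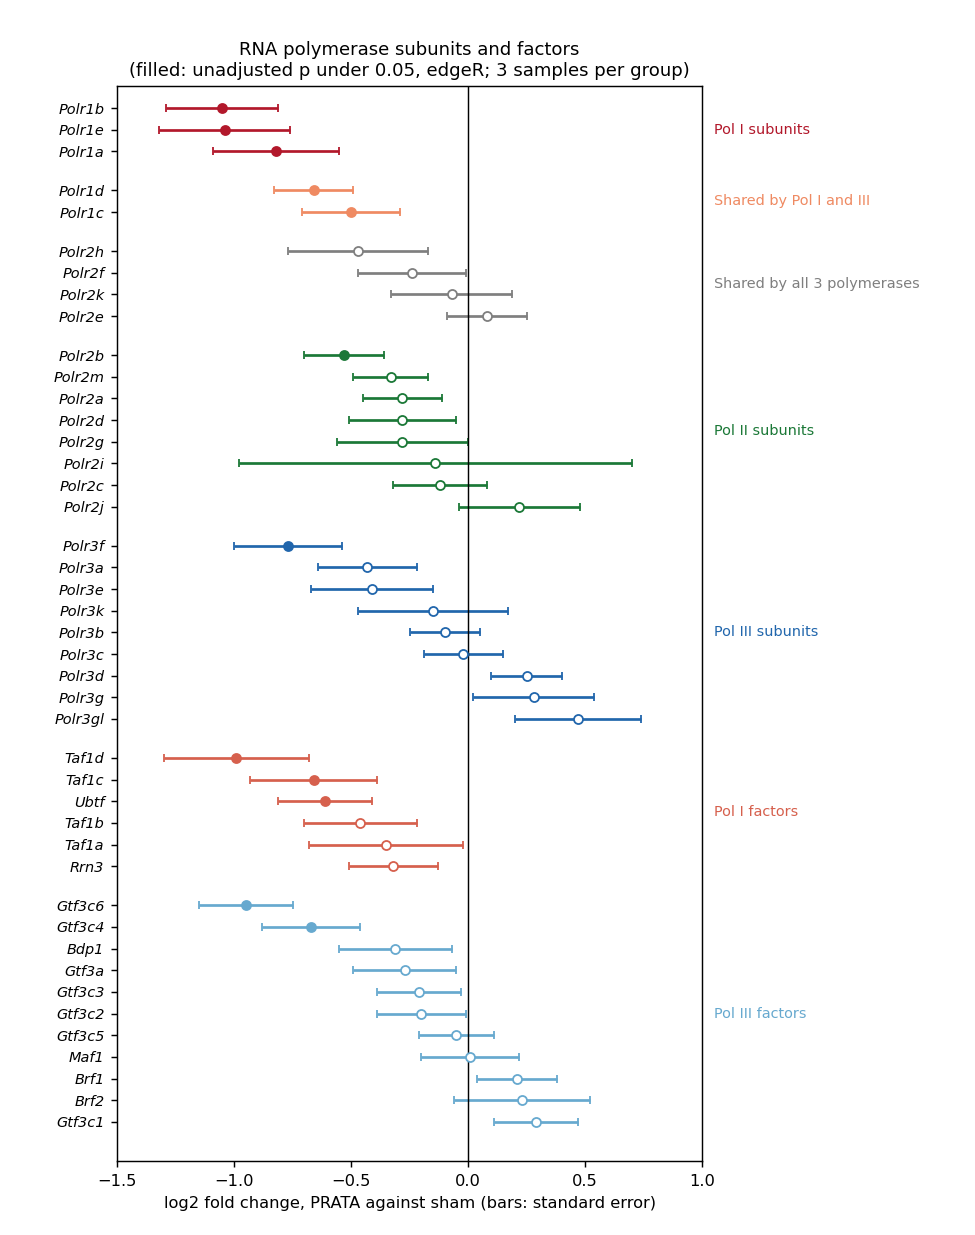
Log2 difference of PRATA minus sham (x axis) for 43 of the 44 members, grouped by polymerase (y axis). Points are edgeR estimates from 3 samples against 3 and bars are 1 standard error; filled points mark the 12 members with an unadjusted p under 0.05. The 11 Pol I genes (Pol I subunits, subunits shared by Pol I and III, and Pol I factors) lie between -1.05 and -0.32. The subunits shared by all 3 polymerases are not among these 11 and lie between -0.47 and 0.08. The Pol II and Pol III subunits spread from -0.77 to 0.47.

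Single samples moved these counts. Without sham sample 3 the number of lower members was 7 (5.57% of all genes tested then), and within the 4 samples that leave out PRATA sample 3 and sham sample 1 it was also 7 (6.9%), 5 of them among the 11 Pol I genes, with 0 members at an adjusted p under 0.05 (0.0878% of all genes). With the replicate number as a block it was 9 (6.08%). Without sham sample 2 it was 17 (14.1%), and 6 members had an adjusted p under 0.05 (Polr1b, Polr1e, Polr1a, Taf1d, Polr3f and Gtf3c4), beside 4.67% of all genes. In that fit 2 members were higher at an unadjusted p under 0.05 (Gtf3c1 and Polr3g). The share of all genes that were higher in that fit was not counted, and in the main fit it was 8.19%.

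Promoter sequences are shown for 4 members that were lower and whose upstream sequence was in the reference used here, 3 of them because they hold an ETS motif and Polr1b because it had the largest log2 difference of the members and holds none. Each line is the 150 bases before the RefSeq start site, on the strand of the gene, in build GRCr8, and capitals mark the ETS motif CCGGAAGT or its reverse complement. The windows are chr3:136786980-136787129 on the plus strand for Polr1b, chr5:64074973-64075122 on the plus strand for Polr1e, chr9:22233168-22233317 on the plus strand for Polr1c and chr20:45222889-45223038 on the minus strand for Gtf3c6. The count table itself names no build.
Polr1b: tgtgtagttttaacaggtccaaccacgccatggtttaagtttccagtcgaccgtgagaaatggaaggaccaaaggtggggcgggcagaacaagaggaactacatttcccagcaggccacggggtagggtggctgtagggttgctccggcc
Polr1e: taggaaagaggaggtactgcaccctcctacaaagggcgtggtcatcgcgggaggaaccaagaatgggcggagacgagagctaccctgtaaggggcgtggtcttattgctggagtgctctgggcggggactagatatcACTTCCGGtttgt
Polr1c: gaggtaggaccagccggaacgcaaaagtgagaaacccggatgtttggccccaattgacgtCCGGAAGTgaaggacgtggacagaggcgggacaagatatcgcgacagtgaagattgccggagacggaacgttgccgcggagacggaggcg
Gtf3c6: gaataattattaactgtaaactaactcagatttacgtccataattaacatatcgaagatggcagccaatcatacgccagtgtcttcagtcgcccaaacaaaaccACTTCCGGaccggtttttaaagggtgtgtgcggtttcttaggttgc

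Promoter windows of 300 bases (250 before and 50 after the start site) were found for 35 of the 44 members, among them all 12 lower members. The ETS motif, searched on both strands, was in 8 of the 35 windows (22.9%) and in 4.77% of the 21851 windows of all protein-coding genes. Its 8 members were Polr1e, Polr1c, Gtf3c6, Rrn3, Polr2f, Polr2j, Polr3b and Bdp1, so that 3 of the 12 lower members held it, and 5 members that did not pass the unadjusted threshold held it as well. The E-box CACGTG, the site read by MYC and related factors, was in 6 of the 35 windows (17.1%, against 7.02% of all) and in 0 of the 12 lower members. CCAAT was in 25.7% of the members' windows and 38.0% of all and TATAAA in 5.71% and 13.0%. A match is a description of the letters and not of a bound factor.

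All 3 subunits of Pol I alone were at 48.3% to 56.8% of the sham mean after PRATA. Polr1a and Polr1b encode the 2 large subunits that form the active site, and Polr1e encodes a subunit that helps the enzyme start and elongate. Polr1b stood at 19, 15.8 and 23.6 CPM in PRATA samples 1 to 3 and at 38.1, 31.5 and 51 CPM in sham samples 1 to 3. Polr1e stood at 13.6, 14.5 and 15 CPM in the PRATA samples and at 38.4, 17.6 and 32.5 CPM in the sham samples. Polr1a stood at 44.3, 36.5 and 51.8 CPM after PRATA and at 93.7, 49.9 and 89.5 CPM after sham. The groups did not overlap for Polr1b and Polr1e, while for Polr1a PRATA sample 3 lay above sham sample 2, the lowest of the sham samples for all 3 genes. The log2 difference was -1.05 for Polr1b (SE 0.24, adjusted p = 0.156), which is 48.3% of the sham mean. For Polr1e it was -1.04 (SE 0.28, adjusted p = 0.168) and for Polr1a -0.82 (SE 0.27, adjusted p = 0.194).

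Polr1c and Polr1d encode the pair of subunits on which both Pol I and Pol III are assembled. Polr1d stood at 19.1, 21.8 and 22.3 CPM after PRATA and at 29.8, 32.5 and 38 CPM after sham, with no overlap, and its log2 difference was -0.66 (SE 0.17, adjusted p = 0.168). Polr1c stood at 13.9, 12.6 and 15.9 CPM after PRATA and at 22.7, 15.6 and 21.6 CPM after sham. Here PRATA sample 3 and sham sample 2 overlapped, and the log2 difference was -0.50 (SE 0.21, adjusted p = 0.266). RefSeq names 1 pseudogene after Polr1d, and a copy of this kind can take up reads from its parent.

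Pol I subunits that the table lists under older symbols, and that the rule for members did not take, had negative log2 differences as well. Twistnb, the Pol I stalk subunit now named Polr1f, stood at 45.3, 47.2 and 36.2 CPM after PRATA and at 80.6, 37.3 and 76.7 CPM after sham, with overlapping groups and a log2 difference of -0.60 (SE 0.29, adjusted p = 0.314). Cd3eap, now Polr1g and the partner of Polr1e in the enzyme, stood at 45.6, 55.9 and 29.6 CPM after PRATA and at 78.5, 54.5 and 111 CPM after sham. Its log2 difference was -0.90 (SE 0.31, adjusted p = 0.215), with PRATA sample 2 above sham sample 2. Znrd1, now Polr1h, had a log2 difference of -0.60 with non-overlapping groups (adjusted p = 0.354).

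**Figure D2:**
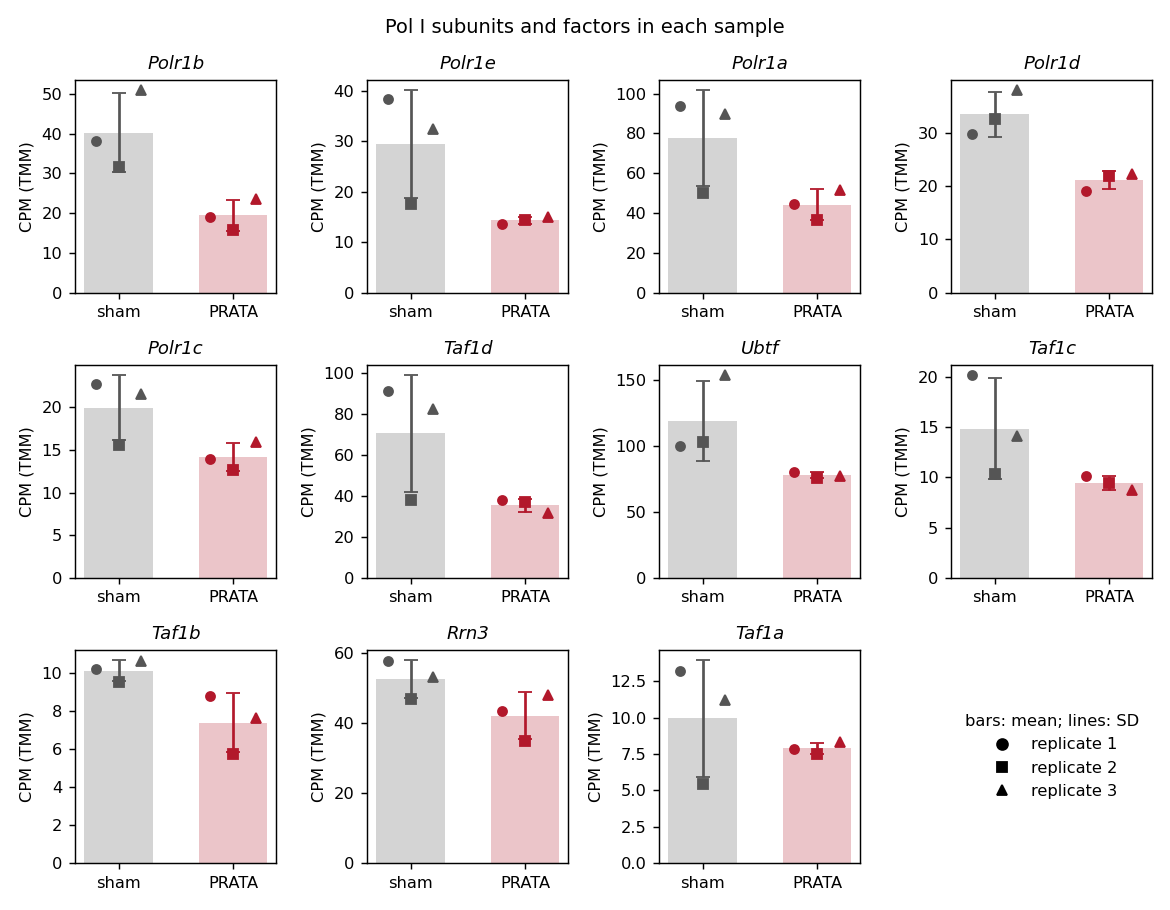
CPM after TMM scaling (y axis, starting at 0) of the 3 Pol I subunits, the 2 subunits shared with Pol III and the 6 Pol I factors in sham (grey) and PRATA (red) samples, with bars at the group mean, lines for the SD of 3 samples and a point for each sample by replicate number. Sham sample 2 is the lowest sham point in 9 of the 11 genes.

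The Pol I factors bring the enzyme to the ribosomal DNA. Ubtf binds along the repeat and opens it, Taf1a to Taf1d form the promoter-binding complex SL1 with the TATA-binding protein, and Rrn3 bridges Pol I to SL1. All 6 had a negative log2 difference, against 48.0% of all genes tested. Of these, 3 were lower at an unadjusted p under 0.05, beside 10.1% of all genes. Taf1d stood at 37.7, 36.9 and 31.8 CPM after PRATA and at 90.9, 37.9 and 82.5 CPM after sham. Ubtf stood at 80.2, 75.9 and 77.2 CPM after PRATA and at 99.9, 103 and 154 CPM after sham. Taf1c stood at 10.1, 9.48 and 8.78 CPM after PRATA and at 20.2, 10.3 and 14.1 CPM after sham. In all 3 genes the groups did not overlap, but for Taf1d and Taf1c sham sample 2 lay only just above the highest PRATA sample.

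The log2 difference was -0.99 for Taf1d (SE 0.31, adjusted p = 0.185), -0.61 for Ubtf (SE 0.20, adjusted p = 0.197) and -0.66 for Taf1c (SE 0.27, adjusted p = 0.254). RefSeq places 9 other genes within the span of Taf1d, most of them unnamed loci, and which strand was counted is not given in the sources used here, so its counts may include reads from those genes. Taf1b stood at 8.78, 5.74 and 7.59 CPM after PRATA and at 10.2, 9.52 and 10.6 CPM after sham. Its groups did not overlap, and its log2 difference of -0.46 (SE 0.24) did not pass the unadjusted threshold (adjusted p = 0.338). Rrn3 stood at 43.5, 34.7 and 48 CPM after PRATA and at 57.6, 46.7 and 53.1 CPM after sham. The groups overlapped, with a log2 difference of -0.32 (SE 0.19, adjusted p = 0.388). Taf1a had a log2 difference of -0.35 (SE 0.33), and its lowest sample of all 6 was sham sample 2.

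Sham sample 2 was the sham sample nearest to the PRATA group for the Pol I genes. It was the lowest sham sample in 9 of the 11 genes (81.8%), against 38.1% of all genes tested, and in 4 of the 11 it did not exceed the highest PRATA sample. Sham samples 1 and 3 exceeded every PRATA sample in all 11. Among the 14919 genes tested, sham samples 1, 2 and 3 did not exceed the highest PRATA sample in 9755, 10791 and 10274 genes. The summed level of the 3 Pol I subunits was 76.8, 66.8 and 90.4 CPM after PRATA and 170, 99.1 and 173 CPM after sham. Thus the sums did not overlap, and sham sample 2 lay between the PRATA samples and the other sham samples.

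The neuron markers moved in the opposite direction. All 16 had a log2 difference above 0, with a median of 0.57, and 5 were higher at an unadjusted p under 0.05 (8.19% of all genes). Among fibroblast markers 8 of 9 tested had a negative log2 difference, with a median of -0.47. Of the 9, 1 was lower at an unadjusted p under 0.05, a share like the 10.1% of all genes. Leukocyte markers had a median of 0.73, and 1 of 10 was higher at an unadjusted p under 0.05. Glial markers had a median of 0.13 but went both ways. Of the 14, 7 had a negative log2 difference, 1 was lower at this threshold and 2 were higher. These counts stand beside 10.1% lower and 8.19% higher among all genes. The cycling-cell markers summed to 63.5 to 69.7 CPM after PRATA and to 67.8 to 90.9 CPM after sham. No marker tested was at 0 in every sample. The sham sample with the highest neuron marker sum, sham sample 2 (15078 CPM), was also the sham sample with the lowest Pol I subunit sum. PRATA sample 2 had about the same neuron marker sum (14404 CPM) and a Pol I subunit sum of 66.8 CPM, against 99.1 CPM in sham sample 2, a pair chosen after their values were seen. This pair was not alike in other markers. PRATA sample 2 and sham sample 2 had glial sums of 2240 and 1276 CPM, leukocyte sums of 313 and 89 CPM and fibroblast sums of 1112 and 1453 CPM. The part of cell makeup in the Pol I difference was not tested.

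**Figure D3:**
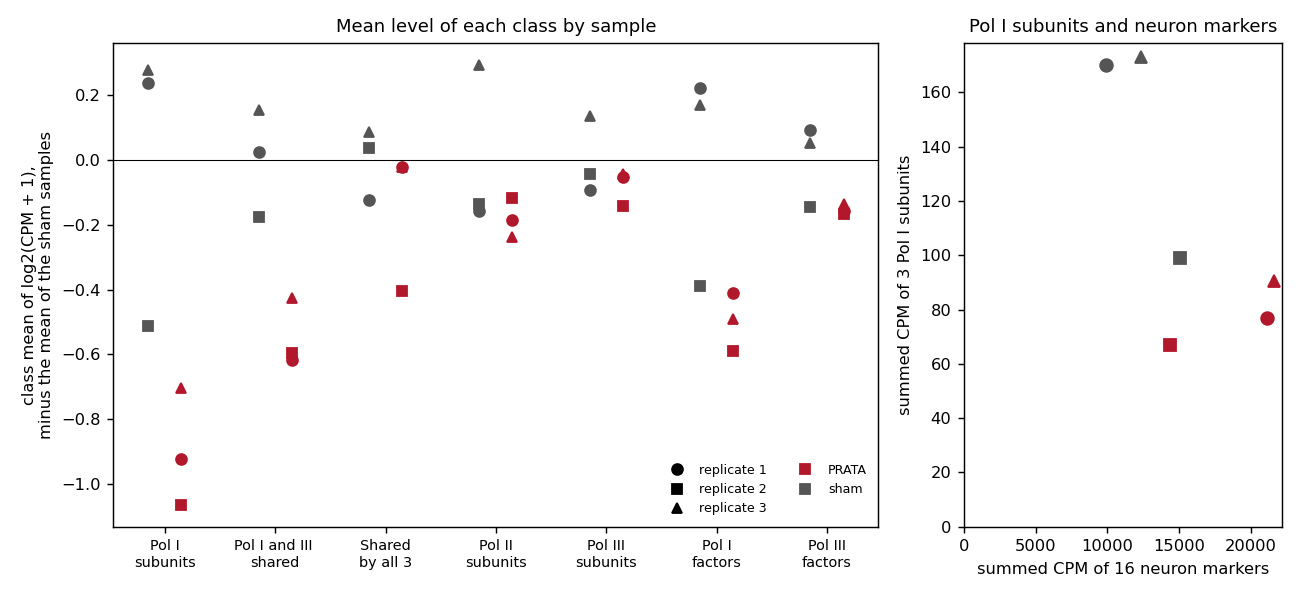
Left, the class mean of log2(CPM + 1) in each sample minus the mean of the sham samples (y axis) for the 7 classes of members (x axis), with sham in grey, PRATA in red and a symbol for each replicate number; right, the summed CPM of the 3 Pol I subunits (y axis) against that of the 16 sensory neuron markers (x axis), both axes starting at 0. In the Pol I subunits, the subunits shared by Pol I and III and the Pol I factors, every PRATA sample lies below every sham sample. In the subunits shared by all 3 polymerases the groups overlap. Sham sample 2 is the sham point with the highest neuron marker sum and the lowest Pol I sum.

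Pol II, the messenger RNA polymerase, showed smaller differences. Of its 8 subunit genes, 7 had a negative log2 difference, 1 was lower at an unadjusted p under 0.05 (10.1% of all genes) and the median was -0.28. Polr2b, which forms the active site with Polr2a, stood at 57.7, 47.2 and 50.9 CPM after PRATA and at 67, 72 and 86.4 CPM after sham. Its groups did not overlap, and the log2 difference was -0.53 (SE 0.17, adjusted p = 0.194). RefSeq places Igfbp7 over part of the span of Polr2b. Polr2a, whose long tail of repeats recruits RNA processing factors, stood at 126, 139 and 146 CPM after PRATA and at 154, 153 and 193 CPM after sham. Polr2m, an accessory protein that holds Pol II in an inactive state, stood at 74.5, 82.8 and 73.3 CPM after PRATA and at 98.5, 84.3 and 107 CPM after sham.

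Neither Polr2a nor Polr2m overlapped between groups, yet neither passed the unadjusted threshold, with log2 differences of -0.28 (SE 0.17, adjusted p = 0.404) and -0.33 (SE 0.16, adjusted p = 0.315). Polr2d, a subunit of the Pol II stalk, stood at 6.84, 9.32 and 8.7 CPM after PRATA and at 10.9, 8.74 and 10.6 CPM after sham, a log2 difference of -0.28 (SE 0.23, adjusted p = 0.538). Polr2j, which pairs with Polr2c in enzyme assembly, had the highest value of the class at 0.22 (SE 0.26, adjusted p = 0.676). It stood at 11, 11.3 and 8.62 CPM after PRATA and at 6.7, 9.05 and 10.8 CPM after sham, so its groups overlapped. Polr2i, named after its values were seen, was at or near the floor of 3 counts in PRATA sample 3 and sham sample 2, and its SE of 0.84 allows no statement. The remaining members, Polr2g and Polr2c, had log2 differences of -0.28 and -0.12.

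None of the 4 subunits shared by all 3 polymerases passed the unadjusted threshold, and their groups overlapped. Polr2h stood at 5.42, 3.43 and 5.77 CPM after PRATA and at 5.46, 7.65 and 7.18 CPM after sham, a log2 difference of -0.47 (SE 0.30, adjusted p = 0.438). Polr2f stood at 19.7, 15.4 and 22.1 CPM after PRATA and at 26.7, 16.9 and 23.7 CPM after sham, a log2 difference of -0.24 (SE 0.23, adjusted p = 0.616). In both genes the highest PRATA sample lay above the lowest sham sample. Polr2e stood at 22.2, 22.4 and 26.5 CPM after PRATA and at 21.2, 24.2 and 21.8 CPM after sham, the highest log2 difference of the class at 0.08 (SE 0.17, adjusted p = 0.829). Polr2k stood at 24.7, 15.4 and 17.2 CPM after PRATA and at 14.4, 23.1 and 22.5 CPM after sham, a log2 difference of -0.07 (SE 0.26, adjusted p = 0.919). The common core of the enzymes thus had a median of -0.15, with 0 of 4 members past the unadjusted threshold. RefSeq names pseudogenes after Polr2e, Polr2h and Polr2k, with 3 for Polr2k. The shared subunit Polr2l was not analysed here.

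The 10 subunits of Pol III had a median log2 difference of -0.08, and 1 was lower at an unadjusted p under 0.05, a share like the 10.1% of all genes tested. This was Polr3f, part of the trimer that opens promoter DNA, which stood at 21.4, 19 and 18 CPM after PRATA and at 33.4, 23.7 and 42.2 CPM after sham. Its groups did not overlap, and the log2 difference was -0.77 (SE 0.23, adjusted p = 0.178), with 2 pseudogenes of that name in RefSeq. The 2 large subunits lay closer to sham. Polr3a stood at 40.4, 28.6 and 42.1 CPM after PRATA and at 49.3, 43.2 and 57.1 CPM after sham, without overlap, and the log2 difference was -0.43 (SE 0.21, adjusted p = 0.31). Polr3b stood at 42.1, 39.9 and 43.2 CPM after PRATA and at 43.9, 43.2 and 46.8 CPM after sham, a log2 difference of -0.10 (SE 0.15, adjusted p = 0.763). Thus the 2 large subunits of Pol I, at -0.82 and -1.05, had more negative values than those of Pol III, a difference that was not tested.

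Polr3d, a subunit used in initiation and termination, was the single member whose PRATA samples all lay above its sham samples, at 90.2, 86 and 76.1 CPM against 67.8, 68.7 and 75.6 CPM. The gap between PRATA sample 3 and sham sample 3 was small, and the log2 difference of 0.25 did not pass the unadjusted threshold (SE 0.15, adjusted p = 0.411). Polr3c, Polr3e and Polr3k had log2 differences of -0.41 to -0.02. Crcp, a Pol III stalk subunit known also as a component of the receptor for calcitonin gene-related peptide, is outside the rule for members. It stood at 20.9, 20.2 and 19.8 CPM after PRATA and at 24.9, 23.9 and 23 CPM after sham, with no overlap and a log2 difference of -0.24 (SE 0.16, adjusted p = 0.448).

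Pol III exists in 2 forms that carry either Polr3g, the form typical of stem and dividing cells, or Polr3gl, the form typical of differentiated tissue. Polr3g stood at 147, 114 and 135 CPM after PRATA and at 77.6, 151 and 98.3 CPM after sham, a log2 difference of 0.28 (SE 0.26, adjusted p = 0.591). Polr3gl stood at 6.58, 7.49 and 5.61 CPM after PRATA and at 4.49, 5.62 and 4.16 CPM after sham, the highest log2 difference of any member at 0.47 (SE 0.27, adjusted p = 0.38). Both genes overlapped between groups. The log2 ratio of Polr3g to Polr3gl within a sample was 4.48, 3.92 and 4.59 after PRATA and 4.11, 4.75 and 4.56 after sham, and the group means differed by -0.14 (exact two-sided permutation test, p = 0.6, where 3 against 3 cannot go below 0.1). CPM is not scaled for transcript length, so the ratio does not give the relative level of the 2 RNAs, and RefSeq names 2 pseudogenes after Polr3g and overlaps it with Mblac2.

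Among the 11 Pol III factors 2 were lower at an unadjusted p under 0.05, beside 10.1% of all genes tested. Both are subunits of TFIIIC, the complex that binds the internal promoter of transfer RNA genes. Gtf3c6 stood at 7.87, 7.49 and 8.62 CPM after PRATA and at 14.3, 15.1 and 16.9 CPM after sham. Both groups were tight and well apart, and its log2 difference of -0.95 (SE 0.20, adjusted p = 0.156) had the smallest p of all members. Gtf3c4 stood at 41.4, 43.7 and 39.9 CPM after PRATA and at 80, 48.5 and 69.4 CPM after sham, without overlap, and the log2 difference was -0.67 (SE 0.21, adjusted p = 0.187). The other TFIIIC subunits lay nearer to 0 or above it. Gtf3c1, the largest subunit, stood at 159, 136 and 162 CPM after PRATA and at 105, 145 and 124 CPM after sham, a log2 difference of 0.29 (SE 0.18, adjusted p = 0.413), and Gtf3c2, Gtf3c3 and Gtf3c5 lay between -0.21 and -0.05.

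Bdp1, a subunit of TFIIIB, which places Pol III at the start site, stood at 174, 177 and 138 CPM after PRATA and at 238, 141 and 225 CPM after sham, a log2 difference of -0.31 (SE 0.24, adjusted p = 0.512). Its partners Brf1, for transfer RNA genes, and Brf2, for U6-type promoters, had log2 differences of 0.21 and 0.23, and Gtf3a, the factor for 5S genes, of -0.27. None of these passed the unadjusted threshold. Maf1, the repressor of Pol III that acts when growth signals fall, stood at 19, 18.6 and 27.6 CPM after PRATA and at 22.6, 19.4 and 23 CPM after sham. Its group means of 21.7 ± 5.08 and 21.6 ± 1.98 CPM (SD, n = 3 each) were within the spread of either group, with a log2 difference of 0.01 (SE 0.21) that took either sign under the alternatives run.

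Genes that work with the polymerases were read from lists beside the members, and each list's counts at an unadjusted p under 0.05 stand beside 10.1% lower and 8.19% higher among all genes tested. Among partners of Pol I on ribosomal DNA, 7 of 13 tested were lower and 0 were higher, with a median log2 difference of -0.54. Npm1, a nucleolar histone chaperone, stood at 177, 163 and 176 CPM after PRATA and at 359, 296 and 430 CPM after sham, a log2 difference of -1.07 (adjusted p = 0.156). Ddx21, a nucleolar RNA helicase, stood at 152, 137 and 128 CPM after PRATA and at 381, 232 and 446 CPM after sham, a log2 difference of -1.34 (adjusted p = 0.156). In both genes every PRATA sample was below every sham sample, as in the 2 Pol I subunits Polr1b and Polr1e.

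Among SNAPc subunits and other Pol III partners 4 of 10 tested were lower, with a median of -0.30. They included Ncl, nucleolin, which is in the ribosomal DNA list too, at 688, 714 and 727 CPM after PRATA and 1488, 966 and 1629 CPM after sham (log2 difference -0.94, adjusted p = 0.168 in edgeR). Zfp143, a factor for small nuclear RNA promoters, had a log2 difference of -0.68. Among the general factors of Pol II 6 of 31 tested were lower and 0 were higher, with a median of -0.17. The lowest p belonged to Tbp, the TATA-binding protein that all 3 polymerases use, at 8, 7.49 and 9.81 CPM after PRATA and 15.2, 12.8 and 15.4 CPM after sham (log2 difference -0.78, SE 0.21, adjusted p = 0.169 in edgeR), followed by the TFIIH subunit Gtf2h1 at -0.50.

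The other lists had medians nearer to the 0.02 of all genes, a difference between lists that was not tested. Of the Mediator subunits, which link Pol II to activators, 5 of 31 tested were lower and 1 was higher, with a median of -0.05, and the smallest p-values belonged to Med1 at -0.63 and Med19 at -0.52. Of the Pol II elongation factors 2 of 24 tested were lower and 1 was higher, with a median of -0.02, so that neither share was above that of all genes (10.1% and 8.19%). The 2 lower genes were Tcea1, which restarts stalled Pol II, at 45.3, 42 and 42.9 CPM after PRATA and 83.3, 64.9 and 98 CPM after sham (log2 difference -0.92, SE 0.19, adjusted p = 0.156 in edgeR), and Ccnt1, a cyclin of the elongation kinase, at -0.75. Polymerase assembly factors had 2 of 13 tested lower, Ruvbl1 at -0.61 and Ruvbl2 at -0.68, with a median of -0.13, beside 10.1% of all genes lower.

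The libraries were made from total RNA with ribosomal RNA fragments removed, and they hold short RNAs that Pol III makes. A list of 9 such RNAs, drawn up after the table was seen and with 5.8S ribosomal RNA standing for Pol I, was summed over all copies in the table. Over all 6 samples the groups overlapped in all 9, and the exact permutation p ranged from 0.2 to 1, where the smallest possible is 0.1. Within the 4 samples that leave out PRATA sample 3 and sham sample 1, 5.8S ribosomal RNA, RNase MRP RNA and vault RNA did not overlap. These were higher after PRATA, while the other RNAs of the list still overlapped. This difference within 4 samples was not tested. So few samples often separate without a group difference, and the share of all genes that did so was not counted. Over all 6 samples the PRATA means of these RNAs were at 142%, 101% and 97% of the sham means, in the order given. The summed 7SL RNA, of the signal recognition particle, stood at 31202, 28811 and 59848 CPM after PRATA and at 62938, 24785 and 33604 CPM after sham, so that the 2 samples that stood apart by gene copy were also the highest. Rpph1, the RNA of RNase P and a single-copy row, stood at 1915, 2330 and 2750 CPM after PRATA and at 3431, 1578 and 1968 CPM after sham, with a PRATA mean at 100% of the sham mean (exact permutation p = 1).

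Y RNAs, summed over 4 rows, were the lowest relative to sham, at 1318, 1297 and 1072 CPM after PRATA and 3064, 1167 and 1718 CPM after sham, which is 62% of the sham mean (exact permutation p = 0.3, adjusted p = 0.9 over the 9). Sham sample 1 was the highest of the 6, and the groups overlapped. The 5S ribosomal RNA stood at 28779, 18380 and 29868 CPM after PRATA and at 23348, 16018 and 19039 CPM after sham, and 5.8S ribosomal RNA at 33348, 26275 and 40241 CPM against 31581, 19426 and 19168 CPM (exact permutation p = 0.3 and p = 0.2, adjusted p = 0.9 for both). Both overlapped between the groups over all 6 samples. These levels follow removal of ribosomal RNA during library preparation and the spread of reads over near-identical copies, and they do not measure the rate of transcription.

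**Figure D4:**
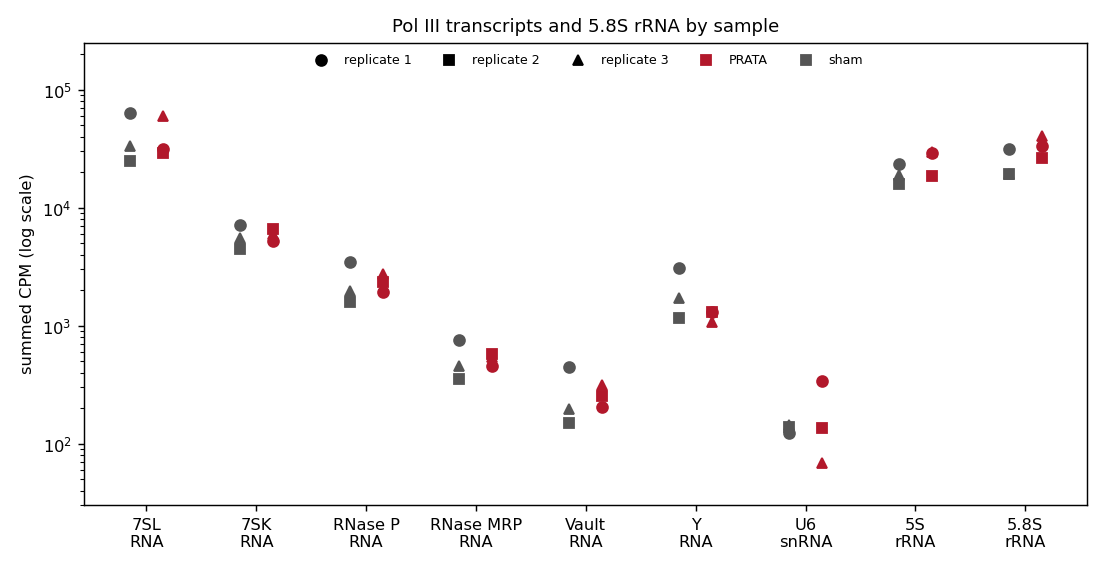
CPM (y axis, log scale) of 9 short RNAs, summed over their copies in the table, in each sample (points), with sham in grey, PRATA in red and a symbol for each replicate number. Over all 6 samples the groups overlap for each of the 9, and PRATA sample 3 and sham sample 1 are the highest of the 6 for 7SL RNA.

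Across the whole set, the mean of the centred log2 values of the 44 members was -0.11, -0.18 and -0.10 in PRATA samples 1 to 3 and 0.14, -0.04 and 0.28 in sham samples 1 to 3. All 3 sham samples therefore lay above all 3 PRATA samples, with sham sample 2 nearest to them. The same mean over the class of Pol III subunits, as log2(CPM + 1), ran from 4.57 to 4.67 after PRATA and from 4.62 to 4.85 after sham, with overlap. For the Pol I subunits it ran from 4.42 to 4.78 after PRATA and from 4.97 to 5.76 after sham, without overlap.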

How the data were processed

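The table deposited by the authors holds raw read counts per gene for the 6 samples, with Ensembl identifiers and symbols. Per the labels, the submitters' processing notes name STAR 2.7.3a, RSEM and DESeq2, and the study's methods name other tools. Which tool made the counts, the build, the annotation and the strand setting are not given in the sources used here. Libraries were stranded and made from total RNA after removal of ribosomal RNA fragments.

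Total counts were 8129162, 12209863 and 12892124 for PRATA samples 1 to 3 and 15226952, 5892967 and 10693367 for sham samples 1 to 3. Genes were filtered by filterByExpr (minimum count 10, minimum total 15), scaled by TMM and tested between groups by the two-sided quasi-likelihood test of edgeR 4.0.16 in R 4.3.3 over all 14919 genes, with Benjamini-Hochberg adjustment. The design has no covariates. SE is the absolute log2 difference divided by the square root of F. DESeq2 1.42.0, limma 3.58.1 voom, other scaling, no filter, a replicate block, left-out samples and protein-coding genes alone were tried. The fit was tested on simulated counts.

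Members and lists were chosen with earlier results of these data known. Values in every sample are given for the 4 members of each class with the smallest p and the one with the highest log2 difference, the 2 large subunits of each enzyme, Polr3g, Polr3gl, Maf1, Ubtf and Rrn3, and for up to 2 genes of each list. Genes given beyond these were picked after their values were seen. The other list members given by symbol in the report serve to name those past the threshold. Floors cover counting error only. Promoters and gene overlaps came from RefSeq tables (GRCr8), in which all 44 symbols were found and 35 had a promoter. There 8 members had a pseudogene named after them and 16 overlapped another gene, and the text names only some of these. Among those not named with their values, Polr1b and Ubtf each overlapped an unnamed locus, and Polr2m and Polr3d had pseudogenes. The values of 1 member are not reported here individually, though it counts in the totals.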

Additional observations from a re-analysis of the deposited data

How the results depend on the processing

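No member passed an adjusted p of 0.05 in edgeR with either scaling, without a filter, with protein-coding genes alone or within 4 samples. DESeq2 gave 4, beside 4.88% of all genes, and limma voom 9, beside 7.86%. Leaving out 1 sample gave 0 to 6 such members, beside 0.0% to 4.67% of all genes. At an unadjusted p under 0.05 it gave 7 to 17 lower members, beside 5.44% to 14.1% of all genes, and 0 to 2 higher members. The share of all genes that were higher in those fits was not counted. Within 4 samples 7 were lower, beside 6.9% of all genes. The median log2 difference ranged from -1.19 to -0.83 for Pol I subunits when 1 sample was left out, from -0.35 to -0.09 for Pol II subunits, from -0.20 to 0.03 for Pol III subunits and from -0.21 to -0.06 for Pol III factors. Within 4 samples the last 2 were -0.23 and -0.07. The difference in the log2 ratio of Polr3g to Polr3gl ranged from -0.32 to 0.06 when 1 sample was left out, with 0.06 without PRATA sample 2, and was -0.45 within 4 samples. The cause was not tested. Of the 30 members given with a value in every sample, 3 that lay near 0 took the other sign under some alternative. These were Maf1 (-0.20 to 0.11), Polr2e (-0.05 to 0.14) and Polr2k (-0.31 to 0.07). The members that passed an adjusted p of 0.05 without sham sample 2, in DESeq2 or in voom were lower.

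Same-numbered samples did not deviate together (r = -0.355, -0.051 and -0.349). The samples that stood apart by gene copy carry different numbers in the groups, which can lower r for paired samples too. These correlations therefore cannot decide whether the numbers mark pairs. With a replicate block 9 members were lower at an unadjusted p under 0.05, beside 6.08% of all genes, 0 had an adjusted p under 0.05 and the Pol I subunit median was -0.97. Depth limits the members with few counts, such as Polr2i.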
